A study of Mus musculus with 4 samples.

Results

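*Apob*, *Zfp467*, *Shisa4*, *Depdc1a* and *Nudcd2* are 5 of the 32285 genes counted in single testis cells of wild-type and *Meioc*-null mice. All 5 lie on autosomes, were found by their gene symbols and were followed through raw counts of unique molecular identifiers (UMIs), which count transcript molecules. They were chosen from these data because their transcripts in *Meioc*-null early spermatocytes stood above the levels of wild-type spermatocytes, so the levels in early spermatocytes are described here without a test. For the 5 members, tests were kept for germ cells outside the clusters named early spermatocytes and for somatic cells, whereas other genes were tested in early spermatocytes as well. Each of the 4 libraries held the cells of 1 testis of 1 pup at postnatal day 15 on the C57BL/6N strain, and each batch was a littermate pair of 1 wild-type and 1 *Meioc*-null pup, so that n = 2 per genotype and replicate numbers 1 and 2 are the batches. *Meioc*-null pups carried the null allele *Meioc* tm1.1Dpc, and the pups of both genotypes were in addition heterozygous for *Hspa2* tm1Dix and homozygous for a *ROSA26*-tdTomato reporter whose stop cassette was intact. The null allele is carried by every cell of the animal, so the somatic cells of the null testes lacked *Meioc* as well. Part of the interstitium was discarded during dissociation, which bears on the few Leydig and interstitial cells.

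The 5 genes encode unrelated proteins. *Apob* encodes apolipoprotein B, the structural protein of chylomicrons and low-density lipoprotein, which is made chiefly by the intestine and the liver. *Zfp467* encodes a C2H2 zinc-finger transcription factor studied mostly in bone marrow stroma, where it acts on the choice between fat and bone. *Shisa4* encodes a transmembrane protein of the Shisa family, whose members are known for binding receptors. *Depdc1a* encodes a DEP domain protein of dividing cells. *Nudcd2* encodes a member of the NudC family, co-chaperones of HSP90 that stabilize proteins of the dynein pathway. In the testis, spermatogonia divide by mitosis, then replicate their DNA a last time as preleptotene spermatocytes and enter meiotic prophase. MEIOC, with YTHDC2 and RBM46, lowers the messenger RNA of mitotic genes at that step.

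The libraries held 158291903 and 190455307 UMIs (wild-type replicates 1 and 2) and 164925883 and 183606620 UMIs (*Meioc*-null replicates 1 and 2). Barcodes with more than 1000 detected genes and less than 10% mitochondrial UMIs numbered 6334 to 8494 per library, of which 5644 to 7505 remained once putative doublets were removed. Any pair of libraries shared 12 to 16 kept barcodes. Wild-type cells alone defined 11 germ cell clusters, numbered along their order, and all cells were then placed by their nearest wild-type cells. By their markers, the cells of cluster 1 were undifferentiated and those of clusters 2 to 6 differentiating spermatogonia, and those of clusters 8 to 10 were early spermatocytes. Clusters 7 (led by *Stra8*, *Hist1h2aa* and *Tslrn1*) and 11 (led by *Ldhc* and *Fabp9*) stayed unnamed. Of the marker lists, that of early spermatocytes scored highest in cluster 7 (0.621, against 0.504 for differentiating spermatogonia), so cluster 7 may overlap the cells for which the members were chosen, and the values of members there are not independent of the choice. Null cells could be placed only in clusters that wild-type cells define, so a cell unlike any wild-type cell still received one of these numbers. By this placing, cluster 8 held 284 and 317 of them, cluster 9 held 456 and 491, cluster 10 held 1 and 1 and cluster 11 held 0 and 0. The *Meioc*-null level in early spermatocytes therefore rests on clusters 8 and 9, and on this placing. Levels are given below in CPM, that is the UMIs of the gene relative to all UMIs of the library's cells in that cluster, on the usual common total.

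The start regions of *Depdc1a* and *Nudcd2* are shown first, because the ratio of *Meioc*-null to wild type in cluster 7 was larger for these members than for *Zfp467* (5.11 for *Depdc1a*, 2.16 for *Nudcd2* and 1.30 for *Zfp467*) and because *Nudcd2* shares its region with a neighbouring gene. Each line gives the 250 bases before the RefSeq start, on the strand of the gene (GRCm38.p6, chr3:159495183-159495432, plus strand, for *Depdc1a*, and chr11:40733411-40733660, plus strand, for *Nudcd2*). Capitals mark the letters CCAAT, the motif TTTGAA (the cell cycle homology region of mitotic genes, here as its reverse complement TTCAAA) and, in *Nudcd2* alone, CCTCAG (core letters of the STRA8 site).
Depdc1a: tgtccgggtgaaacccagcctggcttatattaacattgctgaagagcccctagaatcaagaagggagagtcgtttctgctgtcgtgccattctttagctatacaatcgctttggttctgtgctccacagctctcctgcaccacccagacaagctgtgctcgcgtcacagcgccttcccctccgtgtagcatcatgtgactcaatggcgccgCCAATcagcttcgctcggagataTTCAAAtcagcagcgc
Nudcd2: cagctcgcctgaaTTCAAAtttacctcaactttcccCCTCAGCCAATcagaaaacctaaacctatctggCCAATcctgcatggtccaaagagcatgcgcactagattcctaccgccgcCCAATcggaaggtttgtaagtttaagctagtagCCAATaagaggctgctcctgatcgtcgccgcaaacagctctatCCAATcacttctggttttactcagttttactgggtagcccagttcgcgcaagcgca

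In the *Depdc1a* region, CCAAT began 39 bases and TTCAAA 16 bases before the start. The *Nudcd2* region held CCAAT 5 times, beginning 208, 181, 132, 99 and 56 bases before the start, TTCAAA at 237 bases and CCTCAG at 214 bases, where its last letter is followed directly by the first CCAAT. The search covered both strands of windows of 300 bases (250 before to 50 after the start), and all 5 members were found among the 32851 RefSeq promoters searched. CCAAT was in 37.4% of all these promoters, TTTGAA in 17.9% and CCTCAG in 26.8%. Of the other members, *Apob* held TTTGAA at 189 and at 44 bases and CCTCAG at 240 bases before the start, *Shisa4* held CCTCAG at 117 bases, and *Zfp467* held none of these letters. GCGGGAA (E2F, in 1511 of all promoters), CACGTG (E-box, 7.15%) and TGACGT (part of the cyclic AMP response element, 7.51%) were in 0 of the 5 windows. The windows of *Zfp467* and *Shisa4* were rich in G and C (69.7% and 68.3%, against a median of 52.7% over all promoters), and those of *Apob*, *Depdc1a* and *Nudcd2* had 56.7%, 54.3% and 50% G and C. Such matches are letters in a window and were not tested for use.

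**Figure D1:**
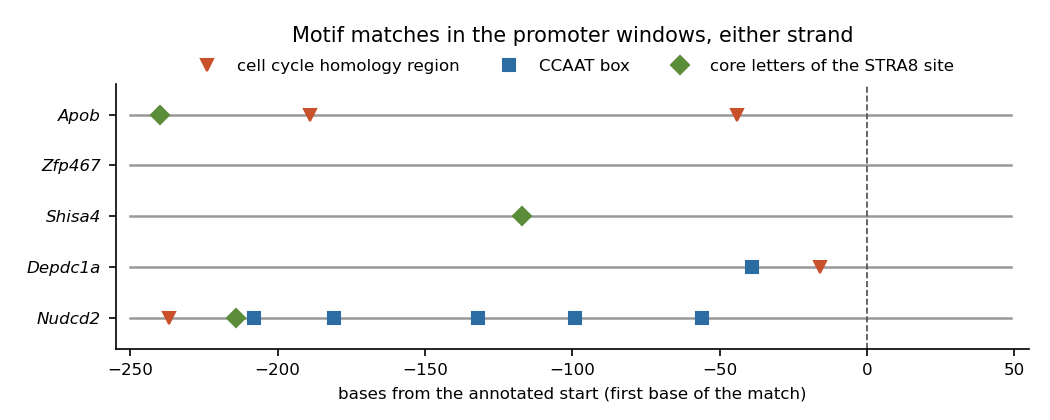
Letters searched in the start regions of the 5 genes, plotted by the distance of their first base from the RefSeq start (x axis, bases), with 1 line per gene and 1 colour per motif. *Nudcd2* holds CCAAT 5 times and *Zfp467* holds none of the letters searched.

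*Nudcd2* (ENSMUSG00000020328, GRCm38 chr11:40733667-40740046, plus strand, protein coding, 4 exonic blocks) was the member called by the main fit. Cluster 7 of wild type held *Nudcd2* at 38.8 and 38.4 CPM, and cluster 7 of the null held it at 79.1 and 87.7 CPM. The genotypes did not overlap, and the log2 fold change (*Meioc*-null over wild type here and throughout) was 1.06 (SE 0.12, edgeR quasi-likelihood test with Benjamini-Hochberg adjustment over the cluster, adjusted p = 1.90e-05, higher in both batches). Of all 6005 genes tested in cluster 7, 26.8% were called, 15.9% as higher and 10.9% as lower in *Meioc*-null. *Nudcd2* was the only call among the 20 tests of members in clusters 1 to 7 and the somatic types by this fit, and since cluster 7 may hold cells the choice used, this call is no independent support for it.

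Before cluster 7, *Nudcd2* lay within 44.0 to 73.6 CPM (wild type) or 49.3 to 74.9 CPM (*Meioc*-null), and its highest germ cell level was that of cluster 1 in both wild-type libraries. In cluster 6 the null libraries were at 60.5 and 60.6 CPM, above the 45.9 and 44.0 CPM of wild type. This log2 difference of 0.41 was not called (SE 0.14, edgeR adjusted p = 0.195, where 1.66% of 6034 genes were called). With the batches as a block it was called (adjusted p = 0.0235, 7.49% of genes called). In clusters 1 to 5 the log2 fold changes of *Nudcd2* were within -0.01 and 0.22 and none was called (edgeR adjusted p at least 0.967, 0.0155% of all gene tests called).

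In the early spermatocytes, wild-type *Nudcd2* was at 37.96 and 47.2 CPM in cluster 8 and at 34.5 and 39.6 CPM in cluster 9. The *Meioc*-null libraries were at 144 and 116 CPM in cluster 8 and at 151 and 172 CPM in cluster 9. The cluster 9 means were 37.1 ± 3.58 CPM (wild type) and 161 ± 14.8 CPM (null, SD, n = 2), a ratio of 4.35. Wild-type cells of cluster 10 were at 40.6 and 40.7 CPM and those of cluster 11, the lowest, at 11.9 and 12.1 CPM.

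*Depdc1a* (ENSMUSG00000028175, GRCm38 chr3:159495433-159529955, plus strand, protein coding, 12 exonic blocks) had its highest wild-type level in spermatogonia. That was in cluster 4, a spermatogonial cluster led by the mitotic genes *Cenpa*, *Plk1* and *Ccnb1*, at 18.6 and 16.3 CPM. Cluster 5, whose leading genes also include *Plk1*, was lower than clusters 1 to 4 in both wild-type libraries. *Depdc1a* then lay at 1.11 and 0.26 CPM in cluster 6, at 1.25 and 1.67 CPM in cluster 7 and at 0.40 and 2.58 CPM in cluster 8. In *Meioc*-null cells no difference was called in the clusters where it was tested (log2 fold changes of 0.13 in cluster 1, -0.18 in cluster 2 and 0.08 in cluster 4). In the null *Depdc1a* was at 15.1 and 10.6 CPM in cluster 5 against 8.18 and 9.66 CPM in wild type, and at 0.80 and 3.69 CPM in cluster 6.

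Past cluster 6, the *Depdc1a* levels of the genotypes stood apart. In cluster 7 the *Meioc*-null libraries held 142 and 125 UMIs of *Depdc1a* (7.17 and 7.74 CPM) and the wild-type libraries 11 and 14 UMIs. Too few cells had a UMI for the main test, which asks for 25% of the cells of either genotype. At a limit of 5% of cells, where 20.8% of genes were called in cluster 7, *Depdc1a* passed through the *Meioc*-null cells alone (6.63% and 8.27% of cells, against 1.27% and 1.89% in wild type), so its difference is given as levels without a p. In cluster 8 the *Meioc*-null libraries stood at 36.2 and 40.0 CPM, above every wild-type profile. The ratio of the means was 25.5 (89.6 in batch 1 and 15.5 in batch 2), which rests on 1 and 10 wild-type UMIs. In cluster 9 the wild-type libraries, at 4.06 and 4.67 CPM, lay far below the null, at 55.5 and 62.7 CPM (means 4.37 ± 0.429 and 59.1 ± 5.05 CPM, SD, n = 2, ratio 13.5).

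**Figure D2:**
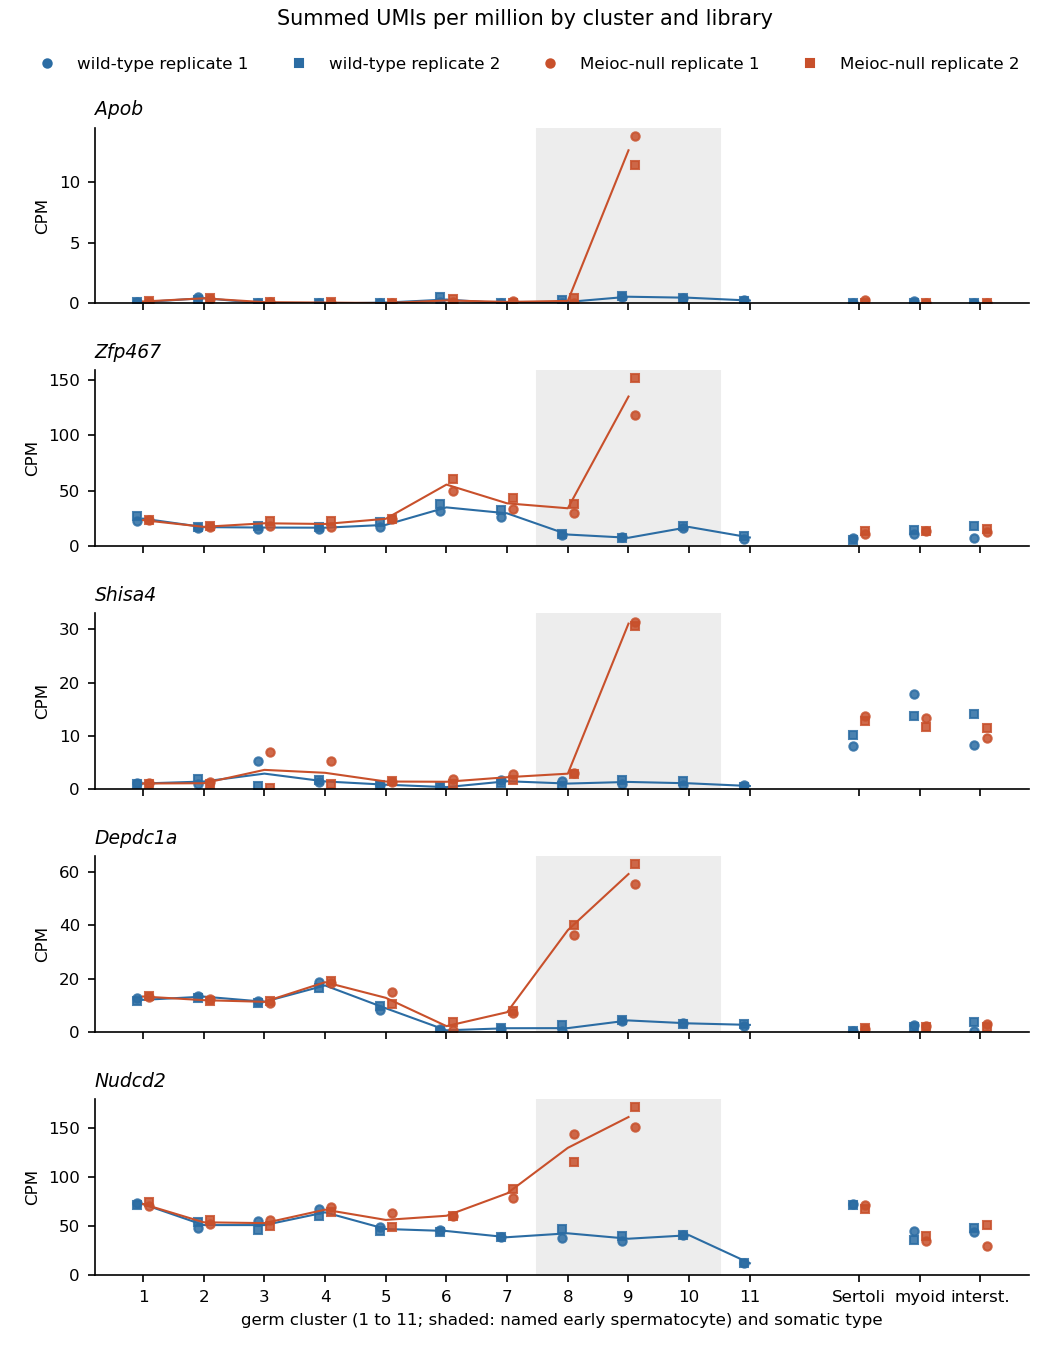
Level of each of the 5 transcripts (y axis, CPM, linear from 0) by cell group (x axis, named early spermatocyte clusters shaded), wild type and *Meioc*-null in separate colours. The groups are the germ cell clusters and the Sertoli, peritubular myoid and interstitial cells, with 1 point per library of at least 50 cells. Leydig cells are not drawn. Of the points drawn, the *Meioc*-null points of all 5 genes are highest in cluster 9, where *Apob* is at 13.8 and 11.5 CPM. Those of *Nudcd2*, *Depdc1a* and *Zfp467* also lie above wild type in clusters 7 and 8.

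*Zfp467* (ENSMUSG00000068551, GRCm38 chr6:48427697-48445825, minus strand, protein coding, 11 exonic blocks) had its highest mean levels among wild-type germ cells in clusters 6 and 7. It was at 31.9 and 38.4 CPM in cluster 6 and at 26.5 and 33.1 CPM in cluster 7, which overlapped, and came down to 10.5 and 10.8 CPM in cluster 8 and 8.13 and 7.41 CPM in cluster 9. In *Meioc*-null cells the same clusters stood at 50.3 and 61.1, 34.1 and 43.5, 30.4 and 38.3, and 119 and 151 CPM. The null profile thus came down from cluster 6 to clusters 7 and 8, which overlapped each other, and stood higher again in cluster 9.

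In cluster 6 the log2 fold change of *Zfp467* was 0.66 (SE 0.17), just outside the threshold in the main fit (edgeR adjusted p = 0.0509) and inside it with the batches as a block (adjusted p = 5.94e-05). In cluster 7 it was 0.33 (SE 0.18, edgeR adjusted p = 0.195), and with the block the adjusted p was 0.00422, in a fit that called 47.2% of genes. Both *Meioc*-null libraries were above both wild-type libraries in each of these clusters. With 1 library left out, where the lone library of a genotype is assumed to vary like the pair of the other, *Zfp467* in cluster 6 was called without wild-type replicate 2 (log2 0.82, edgeR adjusted p = 0.00608) and without *Meioc*-null replicate 1 (0.86, adjusted p = 0.000902). It was not called without wild-type replicate 1 (0.46, edgeR adjusted p = 0.415) or without *Meioc*-null replicate 2 (0.45, adjusted p = 0.202). In clusters 1 to 5 *Zfp467* was not called, with log2 fold changes between -0.10 and 0.33. In cluster 9 the means were 7.77 ± 0.506 CPM (wild type) and 135 ± 23.1 CPM (null, SD, n = 2), a ratio of 17.4.

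*Shisa4* (ENSMUSG00000041889, GRCm38 chr1:135371057-135375237, minus strand, protein coding, 5 exonic blocks) was mainly a somatic transcript in wild type. The peritubular myoid cells, contractile cells around the tubules, had 17.9 and 13.7 CPM, the interstitial cells led by *Clec3b* and *Dcn* 8.31 and 14.1 CPM, and the Sertoli cells, which nurse the germ cells, 8.12 and 10.1 CPM. The marker lists left the group led by *Clec3b* unnamed, and it is only called interstitial here. Its best list was vascular endothelium (score 0.523, with 1 marker detected). Germ cell clusters of wild type were under 2 CPM, with the exception of cluster 3 in replicate 1, at 5.33 CPM, where 76.2% of 42 UMIs came from 5 cells. A few cells likewise made the level of cluster 3 in *Meioc*-null replicate 1 (6.95 CPM, 93.3% of 60 UMIs in 5 cells), and the second replicates were at 0.53 and 0.31 CPM there.

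In cluster 8 the wild-type libraries held 4 and 2 *Shisa4* UMIs (1.62 and 0.52 CPM), and the null libraries 11 and 13 (3.06 and 2.78 CPM). In cluster 9 wild type held 4 and 17 UMIs (1.02 and 1.73 CPM), and the null 175 and 233 (31.4 and 30.7 CPM). The means were 1.37 ± 0.502 and 31.1 ± 0.545 CPM (SD, n = 2), a ratio of 22.7. In the same cluster the 5 myoid markers summed to 38.6 and 18.9 CPM (wild type) against 47.4 and 25.0 CPM (null), higher in the null of each batch. The first batch was above the second in both genotypes, which makes a lack of overlap hard to reach. Of the 5, 0 were higher in both null libraries than in both wild-type libraries. The 6 Sertoli markers summed to 86.9 and 58.4 against 95.2 and 50.3 CPM, with 0 of 6 higher in this way. The 6 Leydig markers summed to 8.38 and 8.33 against 11.5 and 7.77 CPM, with 4 of 6 higher and 1 lower. No list was fixed for the interstitial cells led by *Clec3b*, and the part of somatic RNA in the *Shisa4* level was not tested.

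*Apob* (ENSMUSG00000020609, GRCm38 chr12:7977648-8016835, plus strand, protein coding, 29 exonic blocks) was close to absent from wild-type testis cells. Its highest wild-type profile was 0.609 CPM (cluster 9, replicate 2), and each wild-type cluster held 0 to 6 UMIs per library. *Meioc*-null cells were alike up to cluster 8, with 0 and 2 UMIs in cluster 8. In cluster 9, 77 and 87 UMIs were counted in the *Meioc*-null libraries and 2 and 6 in the wild-type libraries. That corresponds to 13.8 CPM (95% exact Poisson interval 10.9 to 17.3) and 11.5 CPM (9.18 to 14.1) in *Meioc*-null, and to 0.508 CPM (0.0615 to 1.84) and 0.609 CPM (0.224 to 1.33) in wild type, intervals that cover counting error only. The ratio of the means was 22.6 (12.6 ± 1.68 against 0.559 ± 0.0716 CPM, SD, n = 2).

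Both *Meioc*-null libraries lay above both wild-type libraries for *Zfp467* in each of clusters 3 to 9, for *Nudcd2* in clusters 6 to 9 and for *Depdc1a* in clusters 1, 5, 7, 8 and 9. For *Shisa4* this held in clusters 5, 6, 8 and 9, and for *Apob* in clusters 1, 3, 7 and 9. Some of these rest on few UMIs. *Apob* had 2 and 3 null against 1 and 2 wild-type UMIs in cluster 1. It had 1 and 1 against 0 and 0 in cluster 3, and 4 and 1 against 0 and 0 in cluster 7. *Shisa4* had 16 and 5 against 2 and 2 UMIs in cluster 6. In cluster 8 both null libraries thus lay above for 4 of the 5 members, and in cluster 9 for all 5. Over all genes with a UMI, the share that stood apart in this way was 10.8%, 12.4%, 15.9%, 13.9%, 15.9%, 17.7% and 26% in clusters 1 to 7, 30.4% in cluster 8 and 29.8% in cluster 9. Since the members were chosen on clusters 8 and 9, their count there is only a description. Averaged over clusters 8 and 9 as log2(CPM + 1), the difference was 3.73 for *Depdc1a*, 2.78 for *Zfp467*, 2.34 for *Shisa4*, 1.84 for *Nudcd2* and 1.62 for *Apob*, the last of which came from cluster 9.

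The order of the clusters differed between the genotypes. For *Nudcd2*, wild-type levels ran from cluster 1 and the Sertoli cells (means of 72.4 and 71.7 CPM, which overlapped) over cluster 4 (64.0 CPM, apart from both neighbours) to a run of overlapping neighbours from cluster 2 (51.0 CPM) down to cluster 9, with cluster 11 apart at the bottom (11.9 and 12.1 CPM). For *Depdc1a*, wild-type clusters 4 (17.4 CPM) and 2 (13.3 CPM) stood apart from the next in order, clusters 1 and 3 overlapped, and cluster 5 (8.92 CPM) stood apart from the later stages. For *Zfp467*, wild-type clusters 6, 7 and 1 led (35.1, 29.8 and 25.0 CPM, overlapping in that order), and cluster 9 and the Sertoli cells were last (7.77 and 6.87 CPM). Leydig cells are left out of this order, since wild-type replicate 1 held 31 of them. In *Meioc*-null testes cluster 9 led for all 5 members and did not overlap the next in order, among clusters with at least 50 cells in each null library (which leaves out the 1 and 1 cells of cluster 10). The next in order was cluster 8 for *Nudcd2* and *Depdc1a* and cluster 6 for *Zfp467*.

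The *Meioc*-null levels in cluster 9 were next set against every wild-type profile of at least 50 cells, leaving out an unnamed group of low depth. These were 29 profiles of 1 library and 1 cluster each, 22 of them of germ cells. The lower of the *Meioc*-null libraries stood 18.8 times above the highest wild-type profile for *Apob*, 2.99 times for *Depdc1a* (highest in cluster 4), 2.17 times for *Zfp467* (highest in Leydig cells, the steroid-making cells of the testis, at 54.8 CPM), 2.05 times for *Nudcd2* (cluster 1) and 1.72 times for *Shisa4* (myoid cells). Of 8818 genes with at least 5 CPM in both of these *Meioc*-null libraries, 479 (5.43%) lay above every wild-type profile, and 34 of them by at least 2-fold. Ordered by this ratio, the members took places 1 (*Apob*), 10 (*Depdc1a*), 24 (*Zfp467*), 32 (*Nudcd2*) and 64 (*Shisa4*).

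**Figure D3:**
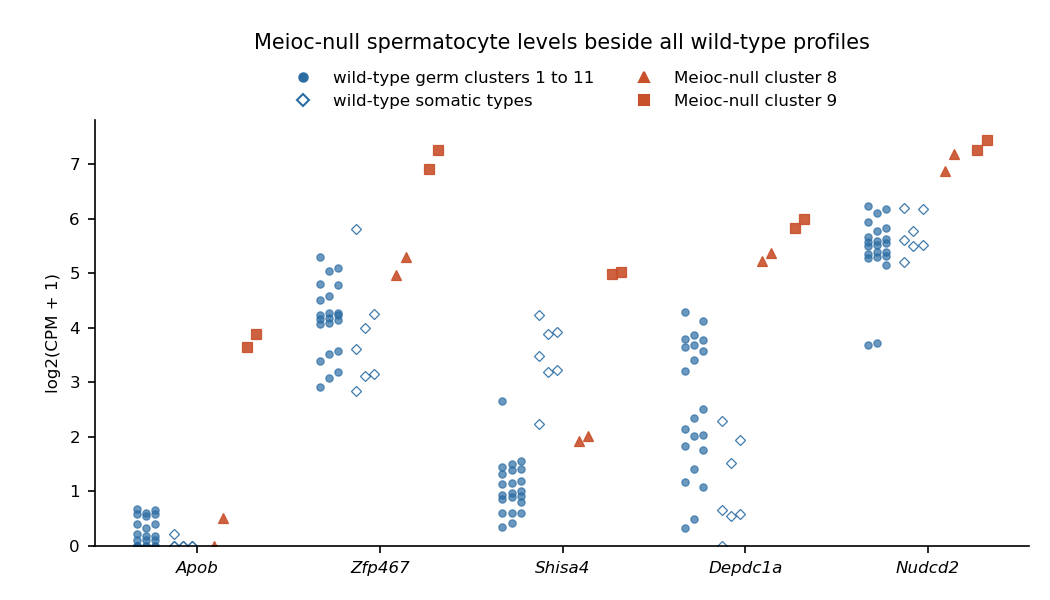
Level of each transcript (y axis, log2(CPM + 1)) in wild-type profiles and in the *Meioc*-null libraries of clusters 8 and 9 (1 point per library and cluster), with the genes along the x axis. Wild-type points are all germ cell and somatic profiles of at least 50 cells, without the unnamed group of low depth. The cluster 9 points of *Meioc*-null lie above every wild-type point for all 5 genes, by 18.8 times for *Apob* and 1.72 times for *Shisa4*.

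Counts in single cells showed in how many null spermatocytes the transcripts were found. In *Meioc*-null cluster 9, a *Zfp467* UMI was counted in 59.0% and 77.8% of cells, *Nudcd2* in 75.2% and 85.1%, *Depdc1a* in 43.2% and 54.4%, *Shisa4* in 24.6% and 33.2% and *Apob* in 10.7% and 11.8%. Since cells of higher depth show more genes, shares were also computed at 5000 UMIs per cell, which left out 35 and 8 *Meioc*-null and 6 and 20 wild-type cells of lower depth. At this depth *Zfp467* was in 38.3% and 48.0% of the null cells and in 3.60% and 3.87% of the wild-type cells. *Nudcd2* was in 50.6% and 54.3% against 16.1% and 17.7%, and *Depdc1a* in 22.9% and 25.4% against 2.04% and 2.14%. *Shisa4* was in 12.5% and 13.2% against 0.595% and 0.824%, and *Apob* in 4.64% and 4.35% against 0.192% and 0.282%. In cluster 8 at the same depth, *Depdc1a* was in 15.4% and 17.7% of null cells against 0.321% and 1.34% of wild-type cells, *Nudcd2* in 50.8% and 42.9% against 18.1% and 20.9%, and *Zfp467* in 14.1% and 17.4% against 4.87% and 5.04%. In cluster 7 *Nudcd2* was in 31.6% and 33.96% against 17.2% and 15.8%, and *Depdc1a* in 3.41% and 3.89% against 0.640% and 0.836%. In the same libraries, *Apob* had a UMI in 0.239% and 0.0803% of the *Meioc*-null cells of cluster 7, unthinned. Median depth was 10417 to 12456 UMIs over the libraries in cluster 7 and 9795 to 14677 in cluster 9. In Sertoli cells, where median depth was 2274 to 3635 UMIs, 1 *Apob* UMI was counted in all 4 libraries together. The part of RNA from outside the cells in the *Apob* counts was not tested.

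A UMI of each of the 5 members was found in 12 of 456 and 19 of 491 null cells of cluster 9, and 47 and 16 cells had a UMI of none. At 5000 UMIs, cells with an *Apob* UMI held *Zfp467* in 51.1% and 61.4% of cases (37.7% and 47.4% of cells without *Apob*), *Shisa4* in 22.5% and 17.04% (11.97% and 13.1%) and *Depdc1a* in 30.3% and 32.3% (22.5% and 25.0%). *Nudcd2* was in 52.996% and 62.4% of cells with *Apob* (50.5% and 53.9% without). At this depth only 4.64% and 4.35% of the cells hold *Apob*, and these differences were not tested. The pair of *Shisa4* and *Nudcd2* went opposite ways in the null libraries, with *Nudcd2* in 46.8% and 58.7% of cells with *Shisa4* and in 51.1% and 53.6% of cells without. So did *Shisa4* and *Depdc1a*, with *Depdc1a* in 22.1% and 26.6% of cells with *Shisa4* and in 22.96% and 25.2% of cells without. The cells of 1 library share 1 mouse, so these shares describe 2 mice.

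To see where in the null population the transcripts lay, the 4470 *Meioc*-null cells of clusters 7 to 10 were clustered on their own, without the members and the listed genes. This gave 7 sub-clusters. Sub-cluster 1 was led by *Hist1h2ab* and *Sohlh1* and sub-cluster 2 by *Arhgdig* and *Slc50a1*, both wholly from cluster 7. Sub-clusters 3 and 5 shared *Rep15* and *Cflar* among their leading genes, and sub-cluster 3 had a median of 6278 UMIs, the lowest of the 7. Sub-cluster 4 was led by the mitotic genes *Cdkn3*, *Ube2c* and *Plk1*. Sub-cluster 6 was led by the meiotic genes *Meiob*, *Ccnb3* and *Spo11* (76.9% of its cells from cluster 9), and sub-cluster 7 by *Rsph1*, *Cox6b2*, *Tsix* and *Fabp9* (99.4% from cluster 9).

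*Nudcd2* stood at 52.0 and 53.0 CPM in sub-cluster 1 and 58.0 and 60.9 CPM in sub-cluster 2, at 113 to 163 CPM in sub-clusters 3 to 6 and at 173 and 203 CPM in sub-cluster 7. *Depdc1a* was at 0.478 to 2.13 CPM in sub-clusters 1 and 2, at 20.4 to 38.4 CPM in sub-clusters 3 to 5, at 49.5 and 46.5 CPM in sub-cluster 6 and at 62.1 and 73.6 CPM in sub-cluster 7. In sub-cluster 4, most of whose cells came from cluster 7, they were at 115 and 122 CPM (*Nudcd2*) and 20.4 and 21.2 CPM (*Depdc1a*). The mitotic transcripts of *Plk1* and *Ccnb1* were not limited to sub-cluster 4: *Plk1* was at 112 and 86.5 CPM there and at 115 and 121 CPM in sub-cluster 7, and *Ccnb1* at 131 and 102 CPM there, at 319 and 234 CPM in sub-cluster 5 and at 153 and 146 CPM in sub-cluster 7. The part of these mitotic transcripts in the members' levels was not tested. *Zfp467* was at 27.6 to 53.8 CPM in sub-clusters 1 to 5, at 61.4 and 69.1 CPM in sub-cluster 6 and at 168 and 195 CPM in sub-cluster 7. *Shisa4* was at 1.26 to 3.94 CPM in sub-clusters 1 to 5, at 16.7 and 13.4 CPM in sub-cluster 6 and at 44.3 and 38.05 CPM in sub-cluster 7.

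*Apob* was counted almost wholly in sub-cluster 7, with 77 and 85 UMIs (24.4 and 17.4 CPM) there and 0 to 2 UMIs per library in each of the other sub-clusters. It was in 22.8% and 19.9% of the cells of sub-cluster 7, where *Zfp467* was in 85.1% and 90.8%. All 5 members had their highest level in sub-cluster 7 in both libraries. Of the leading genes of sub-cluster 7, *Zfy2* and *1700080O16Rik* also led wild-type cluster 9, and *Fabp9* and *Meig1* also led wild-type cluster 11. In wild-type cluster 11 the members were low: 0.318 and 0.168 CPM for *Apob*, 6.51 and 9.50 CPM for *Zfp467*, 0.873 and 0.336 CPM for *Shisa4* and 2.38 and 3.03 CPM for *Depdc1a*.

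**Figure D4:**
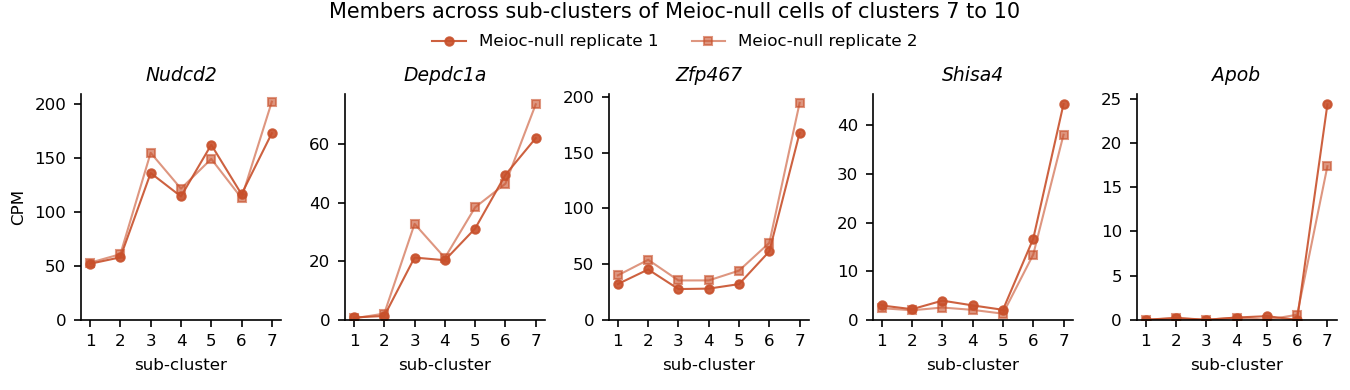
Level of each transcript (y axis, CPM, linear from 0, with its own scale per panel) in the 7 sub-clusters of *Meioc*-null cells of clusters 7 to 10 (x axis), with 1 line per library. *Nudcd2* and *Depdc1a* are higher in sub-clusters 3 to 7 than in 1 and 2, and *Apob* reaches 24.4 and 17.4 CPM in sub-cluster 7.

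The null cells of cluster 9 carried the markers of early spermatocytes together with more of those of differentiating spermatogonia than wild-type cells of the cluster. The 8 early spermatocyte markers, among them *Dmc1* and *Meiob*, summed to 6243 and 5848 CPM in *Meioc*-null against 5027 and 4628 CPM in wild type, with 4 of the 8 higher and 3 lower in both null libraries. The 7 markers of differentiating spermatogonia summed to 723 and 683 CPM against 274 and 240 CPM. Of the 7, 5 were higher and 1 lower in both null libraries than in both wild-type libraries. The 8 pachytene markers were at 300.1 and 319 CPM against 655 and 533 CPM, with 5 of 8 lower and 1 higher in both null libraries. What part these marker levels have in the members' levels was not tested.

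In somatic cells no difference of a member was called, and *Nudcd2* was the only member detected in enough cells there for the main test. *Nudcd2* in Sertoli cells was at 72.2 and 71.2 CPM (wild type) against 71.3 and 67.1 CPM (null; log2 fold change -0.07, SE 0.16, edgeR adjusted p = 0.998). In myoid cells it was at 44.8 and 35.7 against 34.8 and 40.4 CPM (-0.12, SE 0.17) and in the interstitial cells at 44.3 and 47.7 against 30.1 and 51.6 CPM (-0.17, SE 0.23), and neither was called, where 0.165% of 14581 gene tests in the 3 somatic types were. *Zfp467* in Sertoli cells, at 7.61 and 6.12 against 11.6 and 14.2 CPM, had a log2 fold change of 0.88 (SE 0.28) that was not called when the limit was lowered to 5% of cells (edgeR adjusted p = 0.231). *Shisa4* was at 8.12 and 10.1 against 13.7 and 12.8 CPM in Sertoli cells and at 17.9 and 13.7 against 13.4 and 11.6 CPM in myoid cells. Neither difference of *Shisa4* was called at the limit of 5% of cells, and neither reached the main limit. *Depdc1a* stayed under 4 CPM in the Sertoli, myoid and interstitial cells, and in Sertoli cells it was at 0.507 and 0.574 against 1.29 and 1.42 CPM, on 3, 3, 5 and 6 UMIs, too few for the test. In Sertoli cells both null libraries thus lay above both wild-type libraries for *Zfp467* (ratio of means 1.88), *Shisa4* (1.45) and *Depdc1a* (2.51), as did 17.8% of all genes with a UMI there. In Leydig cells, with 20 to 64 cells per library, *Zfp467* was at 25.1 and 54.8 against 40.2 and 50.3 CPM, and no test was run. An unnamed group of low depth (114 to 302 cells per library) held 0 *Apob* UMIs, and its *Nudcd2* level was 56.4 to 72.3 CPM. No member was detected there in enough cells for the test.

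The genes beside the members were looked at because neighbouring genes may share a start region. *Hmmr*, which encodes a microtubule-binding protein of the mitotic spindle, lies on the other strand of *Nudcd2* (chr11:40701395-40733422), with 245 bases between the genes, and its start lies inside the *Nudcd2* sequence printed above. In cluster 7 *Hmmr* was at 120 and 123 against 208 and 199 CPM (log2 fold change 0.69, SE 0.09, edgeR adjusted p = 8.12e-05). In cluster 8 it was at 261 and 268 against 361 and 366 CPM (0.36, adjusted p = 0.00664), and in cluster 9 at 136 and 147 against 369 and 347 CPM (1.33, SE 0.12, adjusted p = 3.18e-26). *Hmmr* was higher in the null of both batches each time. In wild type, *Hmmr* was higher in cluster 8 than in cluster 7, whereas the *Nudcd2* levels of these clusters overlapped.

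On the other side of *Nudcd2*, 8506 bases away, *Ccng1*, a cyclin G gene, had 9.65 and 8.33 against 56.2 and 42.7 CPM in cluster 9. It reached the detection limit of the test through the *Meioc*-null cells alone (33.8% of cells, against 8.43% in wild type), so its difference is given as levels without a p. *Ccng1* was low in cluster 8 in both genotypes (4.44 and 2.58 against 5.01 and 6.21 CPM). Both null libraries were also above wild type in cluster 5 (102 and 101 against 125 and 125 CPM). The same held in clusters 4 (130 and 143 against 147 and 155 CPM) and 6 (37.4 and 36.3 against 58.3 and 54.5 CPM). In clusters 2 and 3 both null libraries were below. Wild-type cluster 4 thus stood above the null level of *Ccng1* in cluster 9. Of the neighbours of the other members, *Ipo9*, an importin gene 7075 bases from *Shisa4*, did not pass in cluster 9 (37.1 and 39.0 against 43.0 and 42.1 CPM, log2 0.15, edgeR adjusted p = 0.379), and *Krba1* beside *Zfp467* was at 20.3 and 18.5 against 17.97 and 17.4 CPM and too rarely detected for the test. *Sspo*, *Lmod1*, *Rpe65* and 3 noncoding genes beside *Apob* and *Depdc1a* were at 1.52 CPM or less in clusters 7 to 9. No annotated gene counted in the files overlapped a member.

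**Figure D5:**
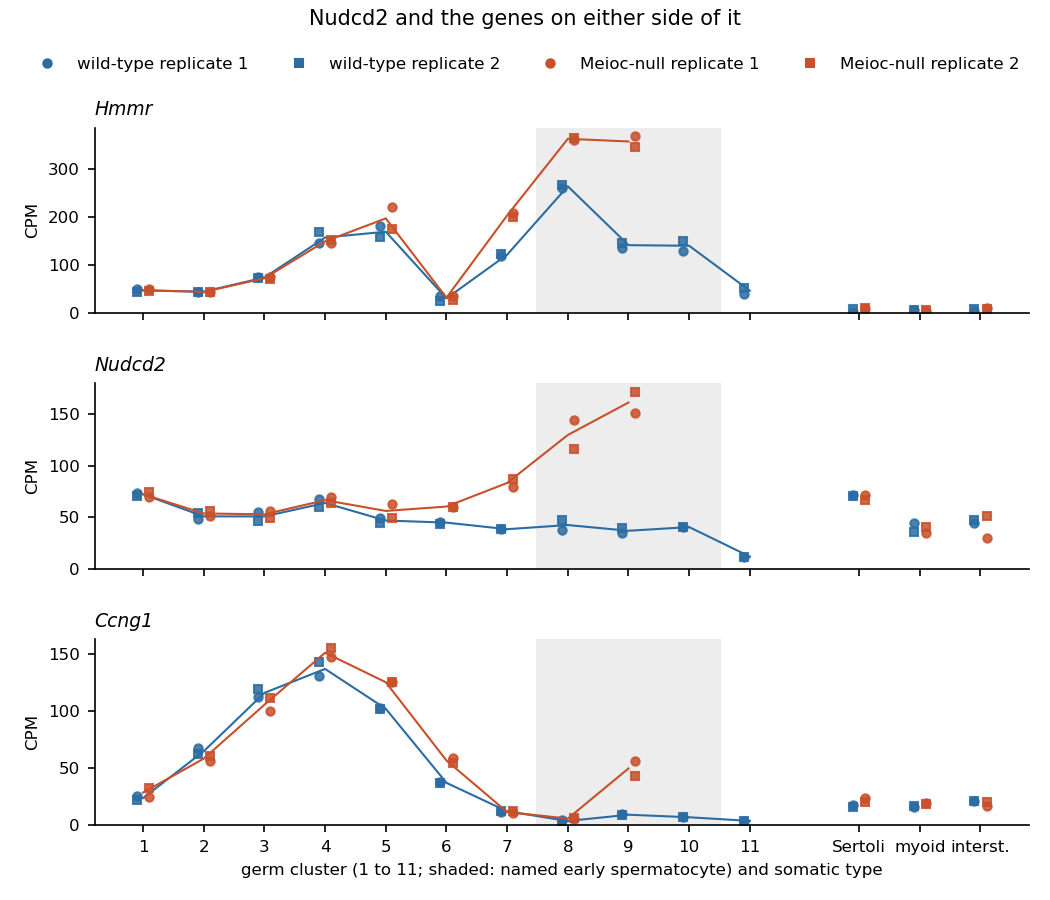
Levels of *Hmmr*, *Nudcd2* and *Ccng1*, neighbours on chromosome 11 (y axis, CPM), by germ cell cluster (x axis), with 1 point per library. In cluster 9 the *Meioc*-null libraries are above the wild-type libraries for all 3 genes, whereas in cluster 7 this holds for *Hmmr* and *Nudcd2*.

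Over 40 germ cell profiles of 4 libraries, 9610 genes were compared with each member by log2(CPM + 1). The 3 genes with the most similar profile were taken for each member. The profiles share libraries and mice, so that r is a description. They also include the *Meioc*-null early spermatocytes for which the members were chosen, which favours genes high there. The null levels of the similar genes in cluster 9 are therefore not independent of that choice. For *Depdc1a* the similar genes were *Arhgap11a* (r = 0.87), *Cenpe* (0.84), a kinetochore motor, and *Cdc25c* (0.84), the phosphatase that starts mitosis. In cluster 9 *Cdc25c* was at 4.32 and 8.53 against 34.7 and 28.3 CPM. For *Nudcd2* they were *Tfam* (0.88), a mitochondrial DNA packaging factor, *Inpp5f* (0.88) and *Cycs* (0.85), somatic cytochrome c. *Tfam* was at 58.9 and 56.6 against 138 and 147 CPM in cluster 9.

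For *Apob* the most similar profiles were those of *Tsix* (0.92), the antisense transcript of the *Xist* locus, *Fthl17a* (0.83) and *Gm49732* (0.78). In cluster 9 *Tsix* was at 7.37 and 4.67 against 62.2 and 67.5 CPM in the null, and it was at or under 1.499 CPM in cluster 8 in all 4 libraries. For *Zfp467* they were *Sv2a* (0.80), *Cmas* (0.78) and *Sept7* (0.77), and for *Shisa4* *Pip4k2c* (0.73), *Mettl27* (0.70) and *Pla2g10* (0.69). *Cmas*, an enzyme of sialic acid activation, was at 52.6 and 52.9 against 173 and 190 CPM in cluster 9.

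The pathways around the members were followed through lists. Of the G2/M phase genes of the cell cycle, 35 of 48 tested were higher and 0 lower in *Meioc*-null in cluster 7 (median log2 0.63), 36 of 49 higher and 0 lower in cluster 8 (0.74), and 34 of 50 higher and 1 lower (*Ckap2*) in cluster 9 (0.50). With the batches as a block 3 were lower in cluster 8 and 5 in cluster 9, in fits that called 29.6% and 31.5% of all genes lower and 31.2% and 32.4% higher. Over all genes tested, 24.9% were higher and 22.7% lower in cluster 8, and 30.1% higher and 28.6% lower in cluster 9, with medians of 0.00 to 0.01. Some of the listed genes reached the detection limit through the *Meioc*-null cells alone, where more cells held them, 4 in cluster 7, 11 in cluster 8 (*Cenpa* and *Cdk1* among them) and 3 in cluster 9. Of the G2/M genes detected in 25% of the cells of both genotypes, cluster 7 had 31 higher among 44 (median log2 0.61). Cluster 8 had 25 higher among 38 such genes (0.53), and cluster 9 had 32 among 47 (0.48). Of all genes detected so, 13.4%, 17.9% and 24.1% were higher and 10.7%, 26.5% and 31.4% lower in clusters 7, 8 and 9. *Tubb4b*, a tubulin, was at 483 and 393 against 889 and 726 CPM in cluster 7 (log2 0.83, edgeR adjusted p = 0.000587) and at 1072 and 729 against 1978 and 1798 CPM in cluster 9 (1.07, adjusted p = 4.05e-08). *Hmgb2* and *Top2a* were called in cluster 9 (0.87 and 0.52) but not in cluster 7 or 8. *Cenpf* was called in cluster 7 (0.60), and in cluster 9, with a log2 fold change of -0.28, it was not.

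S phase genes went both ways. In cluster 8, 6 of 36 were higher and 16 lower in *Meioc*-null (median log2 -0.20), and in cluster 9, of 36 tested, 18 were higher and 3 lower (0.30), or 5 lower with the block. In cluster 7, 3 of 39 were higher and 6 lower (-0.09), and with the batches as a block 13 were lower, in a fit that called 22.4% of all genes lower and 24.8% higher against 10.9% and 15.9% without the block. Among S phase genes detected in 25% of the cells of both genotypes, 3 of 33 were higher and 16 lower in cluster 8 (median log2 -0.24). In cluster 9, 14 of 31 such genes were higher and 3 lower (0.14). *Tipin*, a replication fork protein, was at 555 and 556 against 343 and 358 CPM in cluster 8 (-0.76, edgeR adjusted p = 1.54e-05). *Hells* (-0.55) and *Casp8ap2* (-0.47) were called lower in cluster 8 too, whereas *Slbp*, the histone mRNA binding protein, was called higher in cluster 9 (0.79, at 261 and 235 against 453 and 404 CPM).

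Of the NudC family, HSP90 and dynein genes, 2 of 11 tested were higher in cluster 7 (*Dync1li1* and *Ndel1*) and 0 lower (1 with the block), near the 15.9% of all genes called higher there. In cluster 8, of 11 tested, 4 were higher and 2 lower, in a fit that called 24.9% of all genes higher and 22.7% lower. In cluster 9, of 11 tested, 6 were higher and 1 lower (median log2 0.42), against 30.1% and 28.6% of all genes. *Hsp90ab1*, the chaperone with which NudC proteins act, was at 1058 and 922 against 1704 and 1693 CPM in cluster 9 (0.78, edgeR adjusted p = 6.70e-05), and *Nudc* itself at 259 and 220 against 321 and 318 CPM (0.42, adjusted p = 0.00140). *Dync1i2*, a dynein intermediate chain, was the gene lower there (305 and 279 against 227 and 215 CPM, -0.40, adjusted p = 0.00186). *Nudcd3* was lower in cluster 8 (-0.44) and was not called in cluster 9 (-0.24). In cluster 7, where *Nudcd2* was called, *Nudc* (0.08) and *Hsp90ab1* (-0.22) were not.

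Of the genes of apolipoprotein B assembly and uptake, 3 or 4 of 14 were tested in these clusters. *Sar1b*, a small GTPase of the vesicles that carry lipoproteins out of the endoplasmic reticulum, was higher in *Meioc*-null in clusters 7 (log2 0.74), 8 (0.85) and 9 (0.31, 147 and 134 against 169 and 178 CPM, edgeR adjusted p = 0.0101). *Mttp*, the microsomal protein that loads lipid onto apolipoprotein B, was lower in cluster 9 (46.7 and 59.7 against 39.0 and 36.7 CPM, -0.52, edgeR adjusted p = 0.000532). In cluster 8 it reached the detection limit in wild type alone (37.1% of cells, against 24.5% in the null), and no call is given there. *Surf4*, a cargo receptor, was lower in clusters 7 (-0.46) and 8 (-0.76) and was not called in cluster 9. *P4hb*, protein disulfide isomerase and the other subunit of the MTTP complex, was lower in cluster 7 (-0.34) and higher in cluster 9 (0.32). The genes on the list did not move one way.

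The remaining lists were small. None of 10 other Shisa genes was detected in enough germ cells for the test in clusters 7 to 9. Of 3 other DEP domain genes 1 was tested there, *Depdc5*, a brake on mTORC1, which was lower in cluster 8 (-0.30, edgeR adjusted p = 0.0277) and was called in cluster 9 with the block alone (-0.28, adjusted p = 0.0548 without it). Of 4 factors linked to *Zfp467*, *Pparg*, a fat cell regulator, was lower in cluster 7 (-0.46), and *Stat3* was lower in cluster 8 (-0.36) and higher in cluster 9 (0.35). *Pparg* in clusters 8 and 9 and *Pth1r*, the parathyroid hormone receptor, in cluster 7 reached the detection limit through the *Meioc*-null cells alone, so their differences are given as values without a call. *Pparg* was in 23.2% of wild-type and 42.1% of null cells in cluster 8 and, at 15.2 and 21.1 against 35.0 and 31.7 CPM, in 17.6% and 33.9% of cells in cluster 9. *Pth1r* was in 20.04% and 28.4% of cells in cluster 7.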

How the data were processed

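The 4 libraries were 10x 3′ libraries, 1 per testis. The authors deposited UMI counts per gene and barcode from Cell Ranger 4.0.0 on mm10 (GRCm38). These counts, not normalized, are the only unit used (columns not used: 0). Because reads come from the 3′ end of transcripts, levels were compared between samples and not between genes.

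Barcodes with more than 1000 detected genes and under 10% mitochondrial UMIs were kept. Scrublet in scanpy 1.11.5 scored doublets, and the highest scores, 0.8% per 1000 barcodes (690 to 996 per library), were removed. Wild-type cells were clustered (2000 variable genes, 30 principal components, 20 neighbours), and every cell took the cluster of most of its 30 nearest wild-type cells, with the members and listed genes left out. A cluster was named where the second-best marker list scored below 0.75 of the best. UMIs were summed per library and cluster. Clusters of 50 or more cells in each library were tested, for genes detected in 25% or more of the cells of a genotype, with the edgeR 4.0.16 quasi-likelihood test (R 4.3.3), with genotype as the only term. In the unnamed low-depth group no member reached the detection limit, and it was left out of the member tests. The study's methods gave the detection limit, the fold limit and the lack of a batch term, whereas the study tested single cells in Seurat, and summed counts were tested here because cells are not replicates. A gene was called at a log2 fold change beyond 0.1 either way and a p, adjusted per cluster after Benjamini and Hochberg, under 0.05. No call was made on members in clusters 8 to 11, save that the alternative with fewer clusters joined cluster 8 to cluster 7. Replicates are separate mice. Same-numbered libraries are littermates processed together per the labels, and after removal of the genotype effect they deviated together across genes (correlations of 0.28 to 0.65 in germ cell and 0.19 to 0.23 in somatic clusters), so the replicate block is printed where it changes a call. DESeq2 1.42.0 and other settings were alternatives. The test was checked on simulated data. Intervals and zero counts (a count of 0 allows up to 3 UMIs) cover counting error only.

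Genes named are the 5 members, their nearest neighbours, the 3 most similar profiles each among genes reaching 20 CPM, listed genes that passed (values for the 4 highest) and leading genes of clusters. The members and lists were chosen with earlier results of these data known.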

Additional observations from a re-analysis of the deposited data

Results flagged for a closer look

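For *Shisa4* and *Depdc1a*, both batches moved 1 way in some clusters and the opposite way in another, and the difference between clusters was not tested. *Shisa4*, as the mean log2 difference of *Meioc*-null over wild type on log2(CPM + 1), was 0.50 in Sertoli cells and 0.40 in cluster 5. Both null libraries were above their littermates in each. It was -0.31 in peritubular myoid cells, where both null libraries were below. In cluster 5 of *Meioc*-null replicate 2, 10 of 23 *Shisa4* UMIs came from 1 cell, against at most 2 per cell in the other libraries. In Sertoli cells of *Meioc*-null replicate 1, 9 of 53 came from 1 cell. *Depdc1a* was at 0.13 in cluster 1, 0.46 in cluster 5 and 1.79 in cluster 7, with both null libraries above, and at -0.14 in cluster 2, with both below. In cluster 7 *Depdc1a* was too rarely detected for the main test.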

How the results depend on the processing

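The call of *Nudcd2* in cluster 7 was made in all 14 alternatives that gave a value for it other than the mitochondrial limit (log2 0.91 to 1.53). Cluster 7 may hold cells that the choice used in each of them, so these repeats are no independent support for the call. The alternative with fewer clusters joined cluster 7 to cluster 8, so its call rests partly on cells that the choice used. Of the 20 member tests 1 was called. The count became 2 of 29 with genes in 5% of cells and 4 of 49 with no filter (both with *Depdc1a* in cluster 7, which is detected mainly in null cells). It was 2 with no doublet removal and 0 of 4 with a mitochondrial limit of 5%, under which few cells remain. With fewer clusters, where clusters 7 and 8 and clusters 4 and 5 were merged, the count was 3 of 16. The merged cluster of 7 and 8 holds cells that the choice used, so calls there are no check on cluster 7. Over all genes, 26.8% were called in cluster 7 with the main settings, 20.8% with genes in 5% of cells, 12.7% with no filter, 24.3% with no doublet removal and 39.3% in the matching cluster with fewer clusters, and in cluster 6 1.66%, 1.38%, 1.49%, 1.74% and 7.46%. With each library left out in turn it was 1 to 3, the 3 being reached without wild-type replicate 2 and without *Meioc*-null replicate 1, when *Zfp467* was called in clusters 6 and 7 (log2 0.55 in cluster 7), in fits that called 1.65% and 1.62% of all genes in cluster 6 and 21.4% and 20.5% in cluster 7. *Zfp467* in cluster 6 was called in 5 alternatives and in cluster 7 in 5, and *Nudcd2* in cluster 6 in 2. With the replicate block 4 of 20 member tests were called, *Zfp467* and *Nudcd2* in clusters 6 and 7, and genes called over all went from 6 to 428 in clusters 1 to 5, from 100 to 452 in cluster 6 and from 1612 to 2833 in cluster 7. Under the block, lower calls were 13 for S phase genes in cluster 7 and 5 in cluster 9, 3 and 5 for G2/M genes in clusters 8 and 9, 1 for the NudC and dynein genes in cluster 7 and 1 for the DEP genes in cluster 9. The block changed no other call of a member. With each library left out, *Nudcd2* was at -0.28 to 0.03 in myoid cells, turning positive without wild-type replicate 1 (0.027) and without *Meioc*-null replicate 1 (0.014), and at -0.65 to 0.14 in interstitial cells, where the 0.14 is without *Meioc*-null replicate 1, uncalled throughout.

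The members were chosen for higher *Meioc*-null levels in clusters 8 and 9, so the sign of their level differences there is no test. These level differences kept their sign in all alternatives run. With a pseudocount of 5 CPM they were 0.85 (*Apob*), 2.39 (*Zfp467*), 1.44 (*Shisa4*) and 2.75 (*Depdc1a*), and with 0.1 CPM 2.37 (*Apob*), 2.89 (*Shisa4*) and 4.16 (*Depdc1a*), a shift that the pseudocount makes by construction in low counts. With fewer clusters they were 1.47 (*Apob*) and 2.11 (*Shisa4*), with 15 neighbours 1.54 (*Apob*), and with called genes left out of placing 2.46 (*Shisa4*). Leaving out each library gave 1.52 to 1.73 for *Apob*, 2.599 to 2.94 for *Zfp467*, 2.29 to 2.46 for *Shisa4*, 3.43 to 4.18 for *Depdc1a* and 1.72 to 1.97 for *Nudcd2*. The mitochondrial limit of 5% was not run for these, since it left 2 to 5 cells per library in cluster 8 and 13 to 23 in cluster 9. With genes in 5% of cells, the higher calls were 1 for the apolipoprotein B list and 1 for the Shisa family in cluster 9. They were 1 and 1 for the DEP genes and 0 and 2 for the *Zfp467*-linked genes in clusters 7 and 8. The lower calls were 1 for the DEP genes and 5 for S phase genes in cluster 9. At this limit the share over all genes is given for cluster 7 (20.8%) but not for clusters 8 and 9. Genes that passed through 1 genotype alone are not set apart here, so these counts are not read as results about the lists. With size factors of DESeq2 the *Zfp467*-linked genes had 0 higher calls in cluster 7. The gene that dropped out was *Pth1r*, which passed through the *Meioc*-null cells alone and is given without a call above. The cause of the other shifts was not tested.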

Other observations

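In *Meioc*-null cluster 9 at 5000 UMIs per cell, 21.2% and 16.98% of cells held a UMI of 0 of the 5 members and 40.5% and 37.0% of exactly 1. A UMI of each of 3 members was in 8.70% and 12.2% of cells, and of all 5 in 0.0382% and 0.133%.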
